A study of Mus musculus with 8 samples.

Results

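EpH4-AS is a transformed derivative of EpH4, a mouse mammary epithelial cell line, and the comparison described here is that of EpH4-AS spheroids exposed to PM2.5 with EpH4-AS spheroids left untreated. Spheroids are rounded aggregates of cells grown in culture, and PM2.5 is fine airborne particulate matter. The comparison rests on 4 of the 8 libraries of the study: 2 of untreated EpH4-AS (control) and 2 of EpH4-AS with PM2.5, selected by their labels. The labels give the genotype of all 4 as AS-transformed, and neither what AS stands for nor a dose or duration of exposure. The other 4 libraries are of wildtype EpH4 spheroids, 2 control and 2 with PM2.5, and serve below to test whether an effect differed between the lines. They also entered the shared fit, so the filter on low counts and the estimate of spread behind the EpH4-AS tests rest on all 8 libraries; with the 4 EpH4-AS libraries fitted alone, 2995 genes were called in place of 1529. Separate cultures are not stated for the 2 libraries within a group, so every p value rests on a spread between libraries that could be technical only. Polyadenylated RNA was sequenced, and all libraries carry 1 batch label.

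Total counts were 16356285 and 15393256 in the control libraries and 17131588 and 18334052 with PM2.5. Of 25413 genes, 13716 passed the filter on low counts and were tested. The labelled cell type was checked against marker genes. All 8 epithelial markers examined were under 1 CPM (counts scaled to library size) in every EpH4-AS library, with a summed level between 0.569 and 1.03 CPM, and Krt18, Krt19 and Cldn7 were at 0 in all 4. The mesenchymal markers were mixed. Vim, the intermediate filament of mesenchymal cells, stood between 3507 and 4707 CPM in EpH4-AS, and Fn1, fibronectin, between 2111 and 3345 CPM. In the same libraries Cdh2 was at 4.32 to 5.38 CPM, Col1a1 at 0.0584 to 0.163 CPM and Thy1 at 0. In EpH4 the epithelial markers summed to 3.54 to 9.62 CPM. The defining markers of the labelled epithelial cell type were thus absent or nearly so, and the libraries are called by their line below. Among markers of other cell types, the leukocyte gene Ptprc had at most 0.0584 CPM and the adipocyte genes Adipoq and Lep at most 0.0602 CPM, whereas Cidec, a lipid droplet gene (49.2 to 53.9 CPM), and Cd68, a lysosomal gene (37.5 to 41.2 CPM), were detected in all 4 libraries.

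Several well-known programmes can be read from such a profile. NF-kB is a family of dimeric transcription factors held in the cytoplasm by inhibitor proteins. When the inhibitor is degraded the dimers enter the nucleus, bind kappaB sites and induce chemokines, adhesion and survival genes, and also their own inhibitors, which close a feedback loop. NRF2 responds to oxidants and electrophiles and induces genes of glutathione and thioredoxin metabolism through the antioxidant response element, while ATF4 responds to amino acid and protein folding stress through the amino acid response element. Cellular iron is sensed separately, by iron regulatory proteins that bind hairpins in mRNA: binding in the 3' untranslated region of the transferrin receptor protects that mRNA, and binding in the 5' untranslated region of ferritin mRNAs blocks their translation.

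The sequences that bear on the results below are shown first. The 250 bases before the start site of Cxcl1 (chr5:90890995-90891244, plus strand) and Nfkbia (chr12:55492648-55492897, minus strand) are from the RefSeq promoter table on GRCm38.p6. Cxcl1 encodes a neutrophil chemokine and Nfkbia the NF-kB inhibitor IkappaB-alpha, and capitals mark a match to the 10-base kappaB consensus on either strand. In Cxcl1 the capitals hold 2 overlapping matches.
Cxcl1: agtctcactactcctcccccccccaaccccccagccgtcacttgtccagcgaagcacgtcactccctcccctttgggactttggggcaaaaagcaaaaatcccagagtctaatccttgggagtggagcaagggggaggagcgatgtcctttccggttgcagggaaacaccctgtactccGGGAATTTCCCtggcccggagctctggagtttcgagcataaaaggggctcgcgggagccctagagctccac
Nfkbia: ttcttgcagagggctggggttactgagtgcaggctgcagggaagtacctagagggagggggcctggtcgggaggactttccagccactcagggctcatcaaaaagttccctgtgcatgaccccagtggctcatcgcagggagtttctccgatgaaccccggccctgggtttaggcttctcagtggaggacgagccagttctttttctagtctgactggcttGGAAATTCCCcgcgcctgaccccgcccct

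Shorter stretches around such a match are given for other genes that rose: Cxcl2, a chemokine; Nfkbie and Tnfaip3, feedback inhibitors; Nfkb2, a subunit; Ier3 and Sod2, survival and antioxidant genes; and B2m, the light chain of MHC class I. In GRCm38.p6 these are Cxcl2 at chr5:90903787-90903826 (plus strand), Nfkbie at chr17:45555579-45555618 (plus strand), Tnfaip3 at chr10:19015511-19015550 (minus strand), Nfkb2 at chr19:46304683-46304722 (plus strand), Ier3 at chr17:35821606-35821645 (plus strand), Sod2 at chr17:13007741-13007780 (plus strand) and B2m at chr2:122147546-122147585 (plus strand).
Cxcl2: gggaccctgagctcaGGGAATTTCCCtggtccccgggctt
Nfkbie: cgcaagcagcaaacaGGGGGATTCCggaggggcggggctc
Tnfaip3: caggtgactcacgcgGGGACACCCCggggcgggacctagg
Nfkb2: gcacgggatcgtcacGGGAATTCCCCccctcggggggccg
Ier3: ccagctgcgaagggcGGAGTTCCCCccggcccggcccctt
Sod2: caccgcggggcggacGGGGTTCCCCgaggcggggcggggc
B2m: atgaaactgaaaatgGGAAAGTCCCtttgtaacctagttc

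The second set holds genes of amino acid and antioxidant metabolism. For Slc7a11, the cystine importer (chr3:50443614-50443863, minus strand), the 250 bases before the start hold 2 matches in opposite orientation to the amino acid response element, searched as TGATGNAA on both strands. Asns, asparagine synthetase, and Chac1, which degrades glutathione, hold 1 each. Gclm, the modifier subunit of glutamate-cysteine ligase, and Txnrd1, thioredoxin reductase, hold a match to the antioxidant response element, searched as TGACNNNGC on both strands. In GRCm38.p6 these are Asns at chr6:7693210-7693248 (minus strand), Chac1 at chr2:119351033-119351072 (plus strand), Gclm at chr3:122245407-122245446 (plus strand) and Txnrd1 at chr10:82859098-82859137 (plus strand).
Slc7a11: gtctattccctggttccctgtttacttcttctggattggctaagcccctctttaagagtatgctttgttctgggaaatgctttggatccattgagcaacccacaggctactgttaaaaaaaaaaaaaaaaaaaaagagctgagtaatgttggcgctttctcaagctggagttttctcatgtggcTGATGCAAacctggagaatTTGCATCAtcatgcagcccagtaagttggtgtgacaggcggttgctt
Asns: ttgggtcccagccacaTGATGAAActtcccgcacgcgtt
Chac1: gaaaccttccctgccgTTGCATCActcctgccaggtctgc
Gclm: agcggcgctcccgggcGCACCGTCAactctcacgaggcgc
Txnrd1: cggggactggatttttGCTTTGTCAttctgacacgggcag

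The third set holds hairpins of the iron-responsive kind, found in GENCODE M21 transcripts as an unpaired C, 5 paired bases and a 6-base loop beginning CAGTG, here in capitals. The transcript Tfrc-201, of 4890 bases with coding bases 141 to 2429, held 4 in its 3' untranslated region, at bases 3321, 3700, 3765 and 3812. Among 21901 protein-coding genes, 294 (1.34%) had such a hairpin anywhere in a transcript, and Tfrc was the 1 gene with 4 of them. Fth1 and Ftl1, the ferritin chains, and Slc40a1, the iron exporter ferroportin, each had 1, in the 5' untranslated region.
Tfrc at 3321: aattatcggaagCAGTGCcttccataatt
Tfrc at 3700: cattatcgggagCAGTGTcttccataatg
Tfrc at 3765: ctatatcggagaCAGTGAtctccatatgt
Tfrc at 3812: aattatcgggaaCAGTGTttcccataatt
Fth1: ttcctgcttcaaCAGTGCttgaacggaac
Ftl1: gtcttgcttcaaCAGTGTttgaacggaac
Slc40a1: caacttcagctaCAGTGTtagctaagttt

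With PM2.5, 877 of the 13716 genes tested were higher in EpH4-AS (6.39%) and 652 were lower (4.75%), by edgeR's quasi-likelihood test at an adjusted p under 0.05. Most changes were small. The median fold was 1.28 among the higher and 1.22 among the lower genes, and 110 (0.802% of those tested) passed 2-fold, 90 higher and 20 lower. The count depended on each of the 4 libraries: without control replicate 1 or 2 it was 363 and 372, and without PM2.5 replicate 1 or 2 it was 695 and 490. The balance of rises and falls depended on scaling: it was 715 higher and 916 lower with library totals, and 698 and 866 by limma-trend on RPKM. No gene called in the main test had the opposite sign in any of the other fits. These fits reuse the counts from which the genes were called, so this is no separate check.

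**Figure D1:**
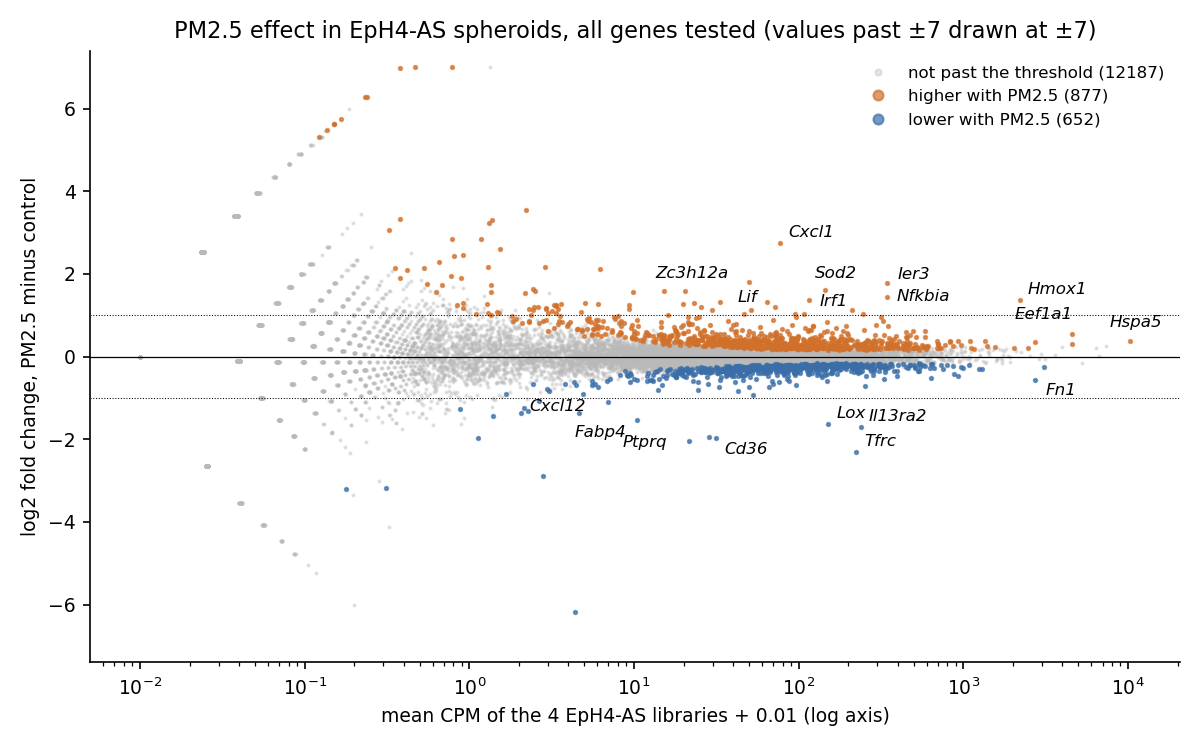
Each point is a gene tested in EpH4-AS, with its mean level in the 4 libraries on a logarithmic horizontal axis (CPM) and its log2 fold change with PM2.5 on the vertical axis; dotted lines mark 2-fold. The 877 genes that rose are orange and the 652 that fell are blue. Among named genes at 5 CPM or more, predicted models aside, Cxcl1 is the highest point and Tfrc the lowest.

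Levels below are TMM-normalised CPM per library, the controls first and replicate 1 before 2, and fold changes are log2 values, PM2.5 minus control, with a standard error. Ligands are described first. Among genes at 5 CPM or more, predicted models aside, the largest rise was that of a ligand. Cxcl1 (ENSMUSG00000029380, chromosome 5, 91039100 to 91040974, GRCm39) stood at 18.96 and 21.2 CPM in the controls and 127 and 142 CPM with PM2.5, 6.69-fold more, and both exposed libraries were far above both controls. The related neutrophil chemokines Cxcl2 and Cxcl3 were far less abundant. Cxcl3 went from 0.241 and 0.253 to 2.39 and 2.55 CPM (log2 3.30 ± 0.42, adjusted p = 2.37e-04), and Cxcl2 had 0 counts in both controls and 16 counts in all with PM2.5 (adjusted p = 0.0264). Ccl2, which attracts monocytes, went from 33.6 and 31.2 to 69.5 and 71.2 CPM (log2 1.12 ± 0.12, adjusted p = 4.68e-05). The same list of 15 tested chemokines held 2 falls, those of Cxcl12, from 8.73 and 10.3 to 4.49 and 4.34 CPM, and Cx3cl1, from 20.7 and 21.4 to 13.4 and 16.8 CPM. Without control replicate 2 the fall of neither was called, and the rise of Cxcl2 was lost in all 4 fits without an EpH4-AS library. The chemokine median was -0.09, against 0.0025 over all genes tested, and 9 members did not pass; 3 rises were called in each fit without an EpH4-AS library.

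Of 16 cytokines and colony stimulating factors tested, 3 rose and none fell, with a median of 0.54. Lif, a cytokine of the interleukin 6 family, went from 42.4 and 44.1 to 93.5 and 106 CPM (log2 1.21 ± 0.084), Csf1, the macrophage growth factor, from 112 and 114 to 169 and 172 CPM (log2 0.59 ± 0.054, adjusted p = 1.10e-05) and Il18 from 4.395 and 3.605 to 6.59 and 6.24 CPM (log2 0.68 ± 0.16). The exposed libraries were above the controls for all 3, but the call of Il18 was lost in all 4 fits without an EpH4-AS library (highest adjusted p = 0.155). Il6 itself was at 0.361 and 0.379 CPM in controls and 0.0584 and 0.434 CPM with PM2.5, so the groups overlapped (adjusted p = 0.745). Of 27 cytokine receptors, 4 rose, Fas, Ifngr2, Tnfrsf1b and Il4ra, and 2 fell; leaving out control replicate 1 or 2 or PM2.5 replicate 1 or 2 left 1, 2, 4 and 2 rises and 1 fall. The larger change was that of Il13ra2, which binds interleukin 13 without the usual signalling chain (ENSMUSG00000031289, chromosome X, 146166472 to 146212188), from 377 and 349 to 124 and 100.05 CPM (log2 -1.70 ± 0.077, adjusted p = 8.30e-09).

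The transcription factors come next. All 5 genes that encode NF-kB subunits rose: Nfkb2, the p100 precursor, from 262 and 259 to 421 and 443 CPM (log2 0.73 ± 0.051, adjusted p = 7.40e-07), Rel by log2 0.76 ± 0.11, Relb by 0.59 ± 0.079, Nfkb1 by 0.38 ± 0.056 and Rela by 0.38 ± 0.05. These 5 calls were made again in each of the 4 fits that left out an EpH4-AS library. Map3k14, the kinase that starts the non-canonical pathway, fell from 36.1 and 37.4 to 28.2 and 27.6 CPM (log2 -0.39 ± 0.084, adjusted p = 0.00862), a call lost in all 4 of them, and the other 5 of the 11 members did not pass.

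Of 12 feedback inhibitors, 8 rose and none fell, with a median of 0.40. Nfkbia (ENSMUSG00000021025, chromosome 12, 55536195 to 55539432, GRCm39) went from 181 and 184 to 497 and 505 CPM (log2 1.45 ± 0.054, adjusted p = 9.02e-10), and the libraries of a group differed little beside the distance between groups. Zc3h12a, a ribonuclease that destroys cytokine mRNAs, went from 23.2 and 21.2 to 67.5 and 87.6 CPM, the exposed pair being more spread than the controls. Nfkbiz, a nuclear cofactor, went from 13.4 and 13.5 to 30.6 and 35.6 CPM and Nfkbie, another cytoplasmic inhibitor, from 9.81 and 11.3 to 17.4 and 20.03 CPM. Tnfaip3, the ubiquitin-editing enzyme A20, had 72.9 and 67.9 CPM in controls and 143 and 144 CPM with PM2.5 (log2 1.03 ± 0.057). Tnip1 (log2 0.32 ± 0.074), Nfkbib (0.31 ± 0.065) and Cyld (0.22 ± 0.06) rose less, and leaving out control replicate 1 or 2 or PM2.5 replicate 1 or 2 left 5, 5, 7 and 5 rises. The calls of Tnip1, Nfkbib and Cyld were lost without either control replicate.

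Of 30 effector genes of NF-kB, 17 rose and Nos2, the inducible nitric oxide synthase, fell from 102 and 118 to 79.2 and 91.1 CPM (adjusted p = 0.0135), a call lost without control replicate 2 or PM2.5 replicate 1. Their median was 0.49, and leaving out control replicate 1 or 2 or PM2.5 replicate 1 or 2 left 11, 11, 13 and 12 rises. Ier3, an early response gene that modulates cell survival (ENSMUSG00000003541, chromosome 17, 36132576 to 36133815), stood at 156 and 157 CPM in controls and 514 and 554 CPM with PM2.5 (log2 1.77 ± 0.06, adjusted p = 6.60e-10). Sod2, the mitochondrial superoxide dismutase, went from 69.4 and 73.3 to 202 and 232 CPM, and Irf1, a transcription factor shared with interferon signalling, from 63.8 and 64.4 to 160.2 and 172 CPM (log2 1.37 ± 0.07, adjusted p = 2.39e-08). The secreted proteins C3, the central complement component, and Lcn2, an iron-chelator carrier, went from 35.6 and 37.1 to 81.3 and 102 CPM and from 17.04 and 20.9 to 42.5 and 52.00 CPM. The adhesion molecule Icam1 went from 64.8 and 59.00 to 126 and 128 CPM (log2 1.04 ± 0.065), and in none of these genes did the groups overlap. For Ier3, Sod2, Irf1, C3 and Lcn2 the rule for naming the largest rises required this. Slpi, a protease inhibitor, and Vcam1 rose at lower levels, from 8.49 and 12.1 to 28.6 and 32.9 CPM and from 1.75 and 2.47 to 4.14 and 5.97 CPM. Leaving out control replicate 1 ended the call of Slpi (adjusted p = 0.0579), and leaving out either control replicate or PM2.5 replicate 2 that of Vcam1 (highest adjusted p = 0.163).

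**Figure D2:**
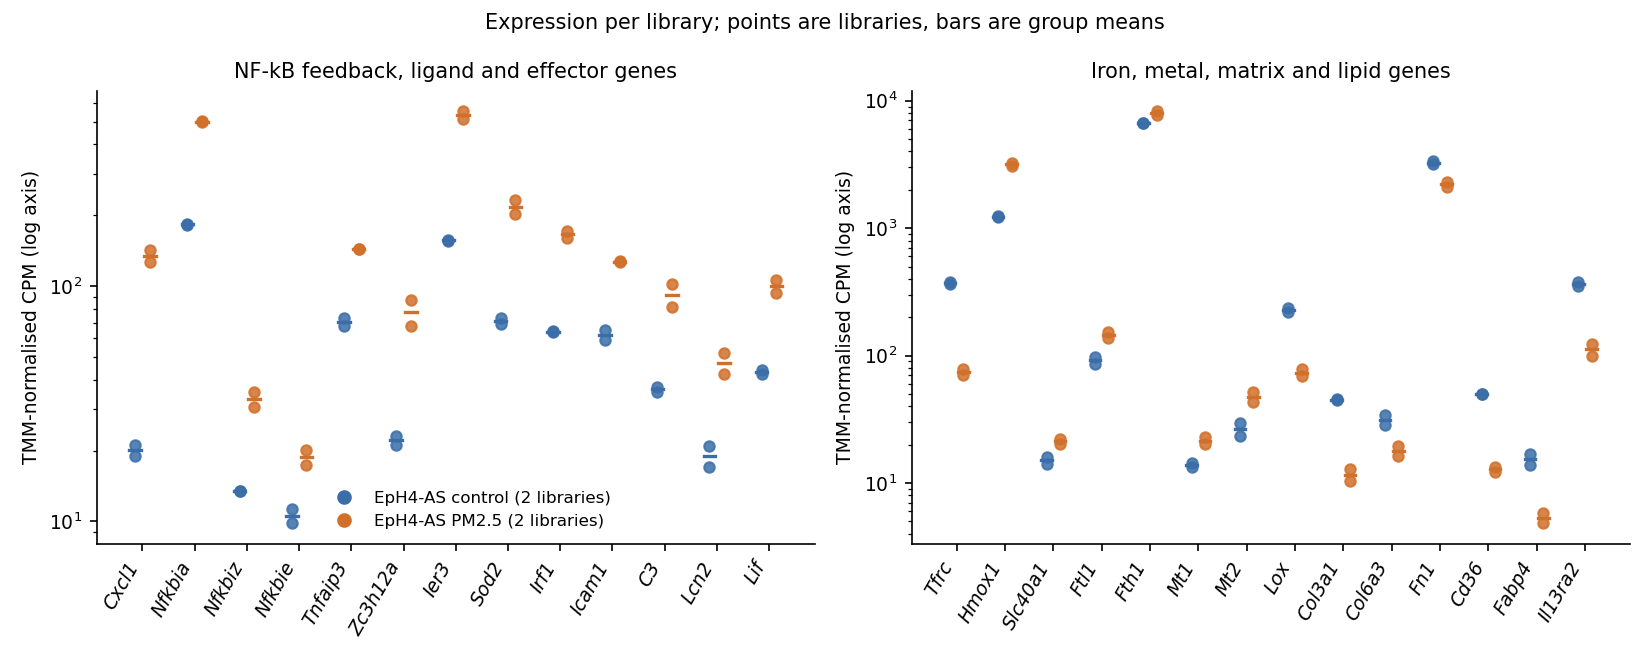
Expression per EpH4-AS library on a logarithmic axis (TMM-normalised CPM), with control libraries in blue, PM2.5 libraries in orange and group means as bars. In the left panel both exposed libraries lie above both controls for every gene, and in the right panel the exposed libraries of Tfrc, Lox, Col3a1, Cd36, Fabp4, Fn1, Col6a3 and Il13ra2 lie below.

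The kappaB letters were more frequent among the promoters of genes that rose. Windows ran from 250 bases before to 50 bases after the start, and a gene with several promoters counted once if any held a match. A match was held by 9.47% of 676 higher genes with a promoter in the table, 5.10% of 529 lower genes and 6.34% of 10200 genes tested. Over all 27025 genes in the promoter table it was 5.14%. Among the genes that rose past 2-fold it was 14 of 72 (19.4%). By list, 5 of the 7 risen feedback inhibitors with a promoter held a match, beside 6 of 10 tested, and 3 of 3 risen chemokines, beside 6 of 10 tested. For the subunits it was 2 of 3 risen and 2 of 8 tested, and for the effectors 3 of 14 risen and 5 of 22 tested, so that the risen effectors held no more matches than all tested ones. A match describes letters and not a site in use, and no test was made of these shares.

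Genes of antigen presentation formed another group with frequent kappaB letters, in 6 of 13 risen and 8 of 19 tested members with a promoter. Of 22 tested genes of MHC class I presentation and the immunoproteasome, 15 rose and none fell, with a median of 0.32 and small folds. Leaving out control replicate 1 or 2 or PM2.5 replicate 1 or 2 left 8, 7, 10 and 8 rises. Psmb10, an immunoproteasome subunit, went from 16.6 and 16.4 to 26.3 and 30.4 CPM (log2 0.78 ± 0.10, adjusted p = 2.37e-04), H2-D1, a heavy chain, from 243 and 253 to 316 and 342 CPM (log2 0.41 ± 0.059) and Psme1, a proteasome activator, from 65.4 and 62.2 to 89.1 and 92.8 CPM. B2m went from 95.7 and 109 to 133 and 144 CPM. Heavy chain genes are near-identical copies of each other and can share reads, so their single values are uncertain. Of 36 interferon-stimulated genes tested, Irf1 and Irf9 rose and none fell, and the call of Irf9 was lost in all 4 fits without an EpH4-AS library. That of B2m was lost without control replicate 1.

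Among genes at 5 CPM or more, predicted models aside, the largest fall was that of an iron gene. Tfrc, the transferrin receptor by which cells import iron (ENSMUSG00000022797, chromosome 16, 32427738 to 32451612, GRCm39), had 375 and 367 CPM in controls and 78.95 and 70.2 CPM with PM2.5, 4.98-fold less (log2 -2.32 ± 0.11, adjusted p = 9.35e-09). The 4 values formed pairs with a wide gap between them. Of the genes with a hairpin in the 5' untranslated region, Ftl1, the ferritin light chain, rose from 85.6 and 98.02 to 137 and 152 CPM (log2 0.66 ± 0.077, adjusted p = 1.11e-04), and Slc40a1 from 15.9 and 14.2 to 20.2 and 22.3 CPM (log2 0.50 ± 0.12, adjusted p = 0.0189), although the call of Slc40a1 was lost in all 4 fits without an EpH4-AS library. Fth1, the ferritin heavy chain, was at 6674 and 6689.5 CPM and 7679 and 8285 CPM, with groups that did not overlap but a change that did not pass (log2 0.26 ± 0.089, adjusted p = 0.0805). Ferritin genes have many processed copies in the genome that can share reads.

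Of the enzymes that degrade heme, Hmox1 and Blvrb rose, while Hmox2 (adjusted p = 0.657) and Blvra (adjusted p = 0.549) were not called. Hmox1, heme oxygenase 1, went from 1236 and 1216 CPM to 3069.9 and 3253 CPM (log2 1.37 ± 0.078, adjusted p = 9.66e-08), and Blvrb, a biliverdin reductase, from 149.8 and 147 to 205 and 217 CPM (log2 0.51 ± 0.052, adjusted p = 3.23e-05). In all, 11 of 39 iron and heme genes rose and Tfrc fell, with a median of 0.10. In each of the 4 fits that left out an EpH4-AS library 5 rose and 1 fell. Ireb2, an iron regulatory protein, was not called (adjusted p = 0.398), and Aco1, the other, rose by log2 0.21 ± 0.062 (adjusted p = 0.0458). Of the metal-binding metallothioneins, Mt1 went from 13.3 and 14.4 to 20.1 and 23.02 CPM (log2 0.64 ± 0.088, adjusted p = 3.50e-04) and Mt2 from 23.3 and 29.8 to 43.5 and 52.1 CPM (log2 0.85 ± 0.12, adjusted p = 3.32e-04). Slc30a1, the zinc exporter, rose by log2 0.39 ± 0.093 and Slc39a10, a zinc importer, fell by 0.30. The calls of Aco1 and Slc30a1 were lost in all 4 fits without an EpH4-AS library, and that of Slc39a10 in 3.

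The deposited tables also hold reads assigned to a gene beyond its exons, which made up 3.39 to 3.59% of gene reads in the 4 libraries and give each gene a further count. They are sparse, so the ratios below (PM2.5 over control, scaled to gene reads) carry an exact 95% interval that covers counting error only. For Tfrc these reads numbered 19 and 14 in the controls and 19 and 13 with PM2.5, a ratio of 0.868 (0.517 to 1.46), while the fitted ratio of its exonic counts was 0.201, outside that interval. For Il13ra2 they numbered 58 and 38, then 19 and 11, a ratio of 0.280 (0.179 to 0.425), beside an exonic ratio of 0.307. For Ptprq, a receptor phosphatase, they numbered 55 and 39, then 14 and 13, a ratio of 0.257 (0.161 to 0.398) beside 0.243, and for Lox 21 and 24, then 9 and 7, a ratio of 0.318 (0.168 to 0.574) beside 0.322. The exonic ratio lay inside the interval for Il13ra2, Ptprq and Lox, and outside it for Tfrc. It was also below the interval for other genes that fell, among them Col6a3, with a ratio of 0.828 (0.595 to 1.15) beside 0.576, and Slc24a3, a sodium, calcium and potassium exchanger, with 0.953 (0.663 to 1.37) beside 0.605.

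Rises could be set side by side in the same way. Cxcl1 had 39 and 44 reads outside exons in controls and 266 and 335 with PM2.5, a ratio of 6.48 (5.14 to 8.25) with the exonic fold of 6.69 inside that interval. Hmox1 had 89 and 88, then 239 and 257, a ratio of 2.51 (2.11 to 2.99), beside an exonic fold of 2.58. Gclm had 1542 and 1463 such reads in controls and 1858 and 2046 with PM2.5, a ratio of 1.16 (1.11 to 1.22) below its exonic fold of 1.94, and for Ier3 and Zc3h12a the ratios of 1.80 (1.36 to 2.40) and 1.96 (1.48 to 2.62) were also below the exonic folds of 3.41 and 3.497. Gnai1, an inhibitory G protein subunit, moved in opposite directions: its exonic level went from 40.5 and 41.2 to 24.7 and 24.7 CPM, while reads outside exons went from 26 and 21 to 54 and 45, a ratio of 1.89 (1.32 to 2.73). Which part of a gene these reads cover, and whether overlapping genes contribute, was not tested.

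**Figure D3:**
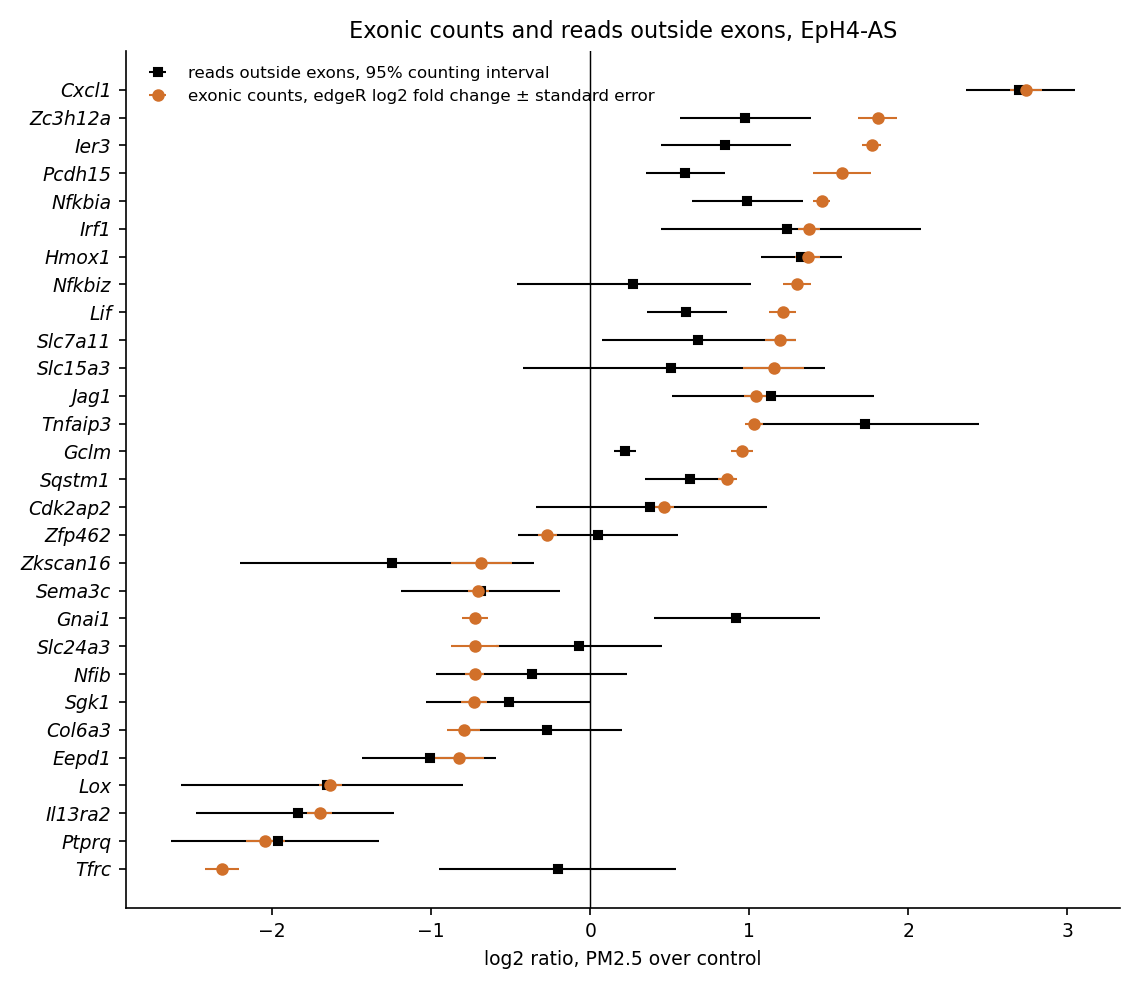
Drawn are genes with at least 40 reads outside exons that were named by the size of their change or by a small interaction p. Tnfaip3 and Gclm were added to these. Orange circles show the log2 fold change of exonic counts with its standard error. Black squares show the log2 ratio of reads outside exons with its 95% counting interval. Both are PM2.5 over control. Both measures lie below 0 in Il13ra2, Ptprq and Lox, whereas for Tfrc, and likewise for Col6a3, Nfib, Slc24a3 and Sgk1, the interval for reads outside exons spans 0.

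Genes of glutathione and cystine metabolism rose in 10 of 19 cases, with a median of 0.27, and Gpx4, the lipid peroxide reductase, fell from 228 and 229 to 206 and 197 CPM (adjusted p = 0.0321), a call lost in all 4 fits without an EpH4-AS library. Slc7a11 went from 14.2 and 16.9 to 37.00 and 34.1 CPM (log2 1.19 ± 0.10, adjusted p = 4.17e-06) and Gclm from 65.3 and 66.4 to 127 and 128 CPM (log2 0.95 ± 0.068, adjusted p = 7.99e-07). Gss, glutathione synthetase, rose by log2 0.44 ± 0.067, and Ggt1, which cleaves glutathione outside the cell, went from 0.361 and 0.316 to 4.43 and 3.64 CPM. In the list of thioredoxin, quinone reductase and NADPH genes 13 of 27 rose and 1 fell, Sod3, at a low level and in none of the 4 fits without an EpH4-AS library, with a median of 0.24. Tkt, transketolase of the pentose phosphate pathway, went from 492 and 489 to 660.3 and 697 CPM (log2 0.47 ± 0.05, adjusted p = 3.82e-05), and Me1, malic enzyme, from 104 and 105 to 146 and 146 CPM (log2 0.48 ± 0.053). Leaving out control replicate 1 or 2 or PM2.5 replicate 1 or 2 left 7, 6, 8 and 7 glutathione and 8, 9, 11 and 9 thioredoxin rises. Nqo1, the quinone reductase, rose from 5.78 and 6.64 to 10.6 and 10.2 CPM (log2 0.74 ± 0.20, adjusted p = 0.0286), a call lost in all 4 of those fits (highest adjusted p = 0.204).

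Of 22 glutathione S-transferases 6 rose, and 4 in each fit without an EpH4-AS library, among them Gsto1 from 12.9 and 16.1 to 27.4 and 28.9 CPM (log2 0.96 ± 0.12, adjusted p = 1.97e-04), and reads of the near-identical Gstp1, Gstp2 and Gstp3 could be shared. Sqstm1, the autophagy receptor p62, went from 226 and 238 to 410.2 and 432 CPM (log2 0.86 ± 0.061, adjusted p = 7.40e-07) and Optn, another such receptor, from 58.04 and 61.6 to 85.5 and 87.7 CPM (log2 0.53 ± 0.058). Antioxidant response element letters were found in a promoter of 21.01% of higher genes, 15.1% of lower genes and 16.6% of genes tested. The share was 13.99% over all genes in the promoter table. These letters were found in only 12 of 72 (16.67%) of the genes that rose past 2-fold. They stood in 3 of 8 risen and 6 of 16 tested glutathione genes, and in 5 of 13 risen and 7 of 25 tested thioredoxin genes. The aryl hydrocarbon receptor senses polycyclic hydrocarbons, and of its 16 tested targets Fosl1, Ereg and Nqo1 rose, Nqo1 with the limit given above. None of the 16 fell and 13 did not pass, but their median was 0.68. In EpH4 8 of them rose and 2 fell. The receptor's classical target Cyp1a1 had 0 counts in the controls and 2 with PM2.5. Cyp1b1 was at 0.241 and 0.506 CPM in controls and 1.23 and 0.760 CPM with PM2.5 (adjusted p = 0.0785 by edgeR). Its rise was called without the filter on low counts and with the EpH4-AS libraries fitted alone. Tiparp, a further target, was at 303 and 282 CPM in controls and 318 and 277 CPM with PM2.5, with overlapping groups (adjusted p = 0.899).

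The list of ATF4 targets and serine and one-carbon genes had 22 rises and no fall among 40 tested genes, with a median of 0.26. Mthfd2, a mitochondrial folate enzyme, went from 131 and 128 to 189 and 193 CPM (log2 0.56 ± 0.056, adjusted p = 2.39e-05), Ddit4, an inhibitor of mTOR signalling, from 88.7 and 91.4 to 133 and 141 CPM (log2 0.61 ± 0.054) and Pck2, a gluconeogenic enzyme of mitochondria, from 46.4 and 48.5 to 73.1 and 67.5 CPM (log2 0.57 ± 0.074). Asns went from 135 and 142 to 177 and 185 CPM and Chac1 from 17.3 and 16.3 to 25.9 and 26.00 CPM, all without overlap. The call of Asns was lost without control replicate 1. Atf4 itself was not called (log2 0.13 ± 0.063, adjusted p = 0.231). Leaving out control replicate 1 or 2 or PM2.5 replicate 1 or 2 left 9, 9, 16 and 12 rises. Amino acid response element letters stood in 8 of 16 risen and 10 of 28 tested members with a promoter. The shares were 2.95% of all genes tested and 4.51% of all genes in the promoter table.

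Some protein folding and synthesis genes rose slightly at high levels. Hspa5, the main chaperone of the endoplasmic reticulum, was at 9286 and 8706 CPM in controls and 12498 and 10763 CPM with PM2.5 (log2 0.37 ± 0.092, adjusted p = 0.0193). Of 27 such chaperones and unfolded protein response genes 8 rose and Ern1, the stress sensor IRE1, fell, and leaving out control replicate 1 or 2 or PM2.5 replicate 1 or 2 left 2, 0, 2 and 7 rises. The call of Hspa5 was lost without either control replicate or PM2.5 replicate 1, and that of Ern1 in all 4 fits. Eef1a1, the translation elongation factor, went from 3743 and 3695 CPM to 5386 and 5548 CPM (log2 0.56 ± 0.066, adjusted p = 1.12e-04). Of 58 cytosolic ribosomal protein genes 30 rose and none fell, with a median of 0.22, for example Rpl15 from 239.6 and 233 to 339.9 and 343 CPM and Rps27a from 326 and 318 to 461 and 449 CPM. Leaving out control replicate 1 or 2 or PM2.5 replicate 1 or 2 left far fewer of these calls each time. Ribosomal protein genes also have many copies that can share reads. Of 13 mitochondrially encoded genes 8 rose, with a median of 0.42 (2, 4, 5 and 3 in those fits), beside a mitochondrial share of counts of 0.219 and 0.246% in controls and 0.270 and 0.302% with PM2.5. The part of that share in the result was not tested.

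**Figure D4:**
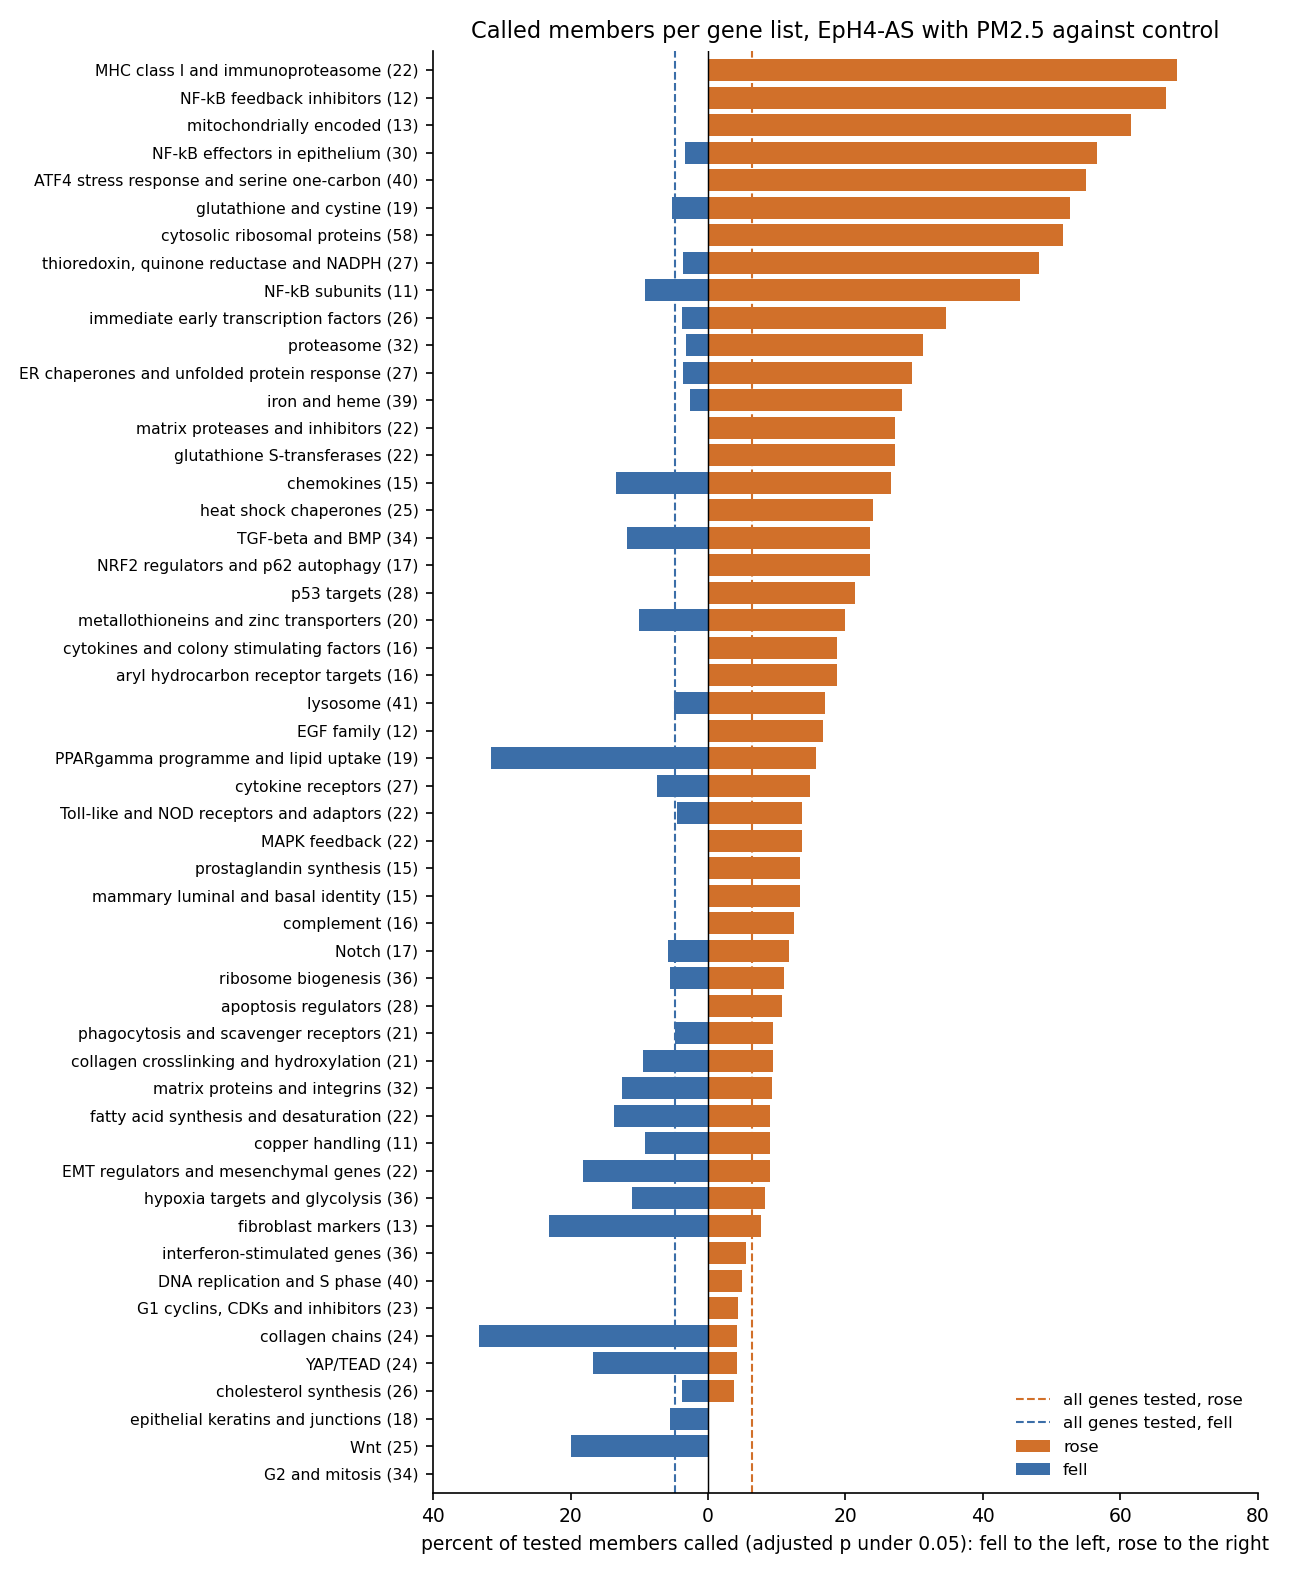
Bars give, for each gene list with at least 10 tested members, the percent of these that rose (orange, to the right) or fell (blue, to the left) in EpH4-AS with PM2.5, with the number tested in brackets; dashed lines mark the 6.39% and 4.75% of all genes tested that rose and fell. Of the lists drawn, those that extend furthest to the right are MHC class I (15 of 22), NF-kB feedback (8 of 12) and mitochondrially encoded genes (8 of 13), and those furthest to the left are collagen chains (8 of 24) and the PPARgamma programme (6 of 19).

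The account turns to genes of the extracellular matrix, several of which fell. Lox, lysyl oxidase, which crosslinks collagen and elastin, had 219 and 236 CPM in controls and 68.6 and 78.1 CPM with PM2.5 (log2 -1.63 ± 0.07, adjusted p = 4.75e-09). Of 24 collagen chain genes 8 fell and 1, Col12a1, rose, with a median of -0.12, and leaving out control replicate 1 or 2 or PM2.5 replicate 1 or 2 left 5, 4, 5 and 6 falls. Col3a1, a fibrillar chain, dropped from 45.3 and 44.97 to 10.4 and 12.9 CPM (log2 -1.95 ± 0.12, adjusted p = 1.52e-07). Col6a3, of the beaded filaments, went from 28.5 and 33.96 to 16.5 and 19.4 CPM (log2 -0.80 ± 0.10) and Col5a1 from 1039.5 and 974 CPM to 817 and 683 CPM (log2 -0.43 ± 0.072). Fn1, fibronectin, fell from 3345 and 3187 CPM to 2304 and 2111 CPM (log2 -0.57 ± 0.068, adjusted p = 1.41e-04), and the small proteoglycan Dcn from 394 and 390.1 to 268 and 273 CPM (log2 -0.53 ± 0.089). Of 13 fibroblast markers tested, Col3a1, Dcn and Lum fell and S100a4 rose, while the summed level of 8 mesenchymal markers was 6979 and 7123 CPM in controls and 6252 and 6910 CPM with PM2.5; its part in these falls was not tested. The matrix-degrading side moved in the opposite direction: 6 of 22 proteases and inhibitors rose and none fell (4, 2, 4 and 3 rises in the same 4 fits). Mmp9, a gelatinase, went from 406 and 375 to 614 and 577 CPM (log2 0.61 ± 0.057, adjusted p = 1.40e-05), and Mmp13, a collagenase, from 1.38 and 0.949 to 3.85 and 3.47 CPM. The calls of Mmp13 and Col12a1 were lost without control replicate 2, that of Col5a1 without control replicate 1, and that of Lum in all 4 of those fits.

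Several genes of lipid uptake fell too. In the list of the PPARgamma programme 6 of 19 fell and 3 rose, with a median of -0.23. Cd36, a fatty acid transporter, dropped from 49.6 and 50.2 to 13.5 and 12.2 CPM (log2 -1.96 ± 0.091, adjusted p = 9.35e-09), Fabp4, a fatty acid carrier, from 16.9 and 13.9 to 5.84 and 4.83 CPM and Pparg itself from 259 and 253 to 198 and 202 CPM (log2 -0.36 ± 0.062, adjusted p = 0.00222). Leaving out control replicate 1 or 2 or PM2.5 replicate 1 or 2 left 2, 2, 5 and 3 falls. Abhd6, which hydrolyses monoacylglycerol, rose from 4.33 and 5.57 to 14.2 and 15.3 CPM (log2 1.57 ± 0.16). Of 6 adipocyte markers tested, 3 fell, and these were Fabp4, Lpl and Pparg of the same list; of the 5 other adipocyte genes checked, Cidec was at 49.2 and 51.3 CPM in controls and 53.9 and 52.3 CPM with PM2.5, and Adipoq, Plin1, Lep and Retn were at or near 0. The calls of Pparg and Lpl were lost without either control replicate. In bulk RNA, fewer cells that express a gene and less RNA of it per cell cannot be told apart.

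Immediate early transcription factors rose in 9 of 26 cases, and Fosl2 fell. Fosl1, an AP-1 subunit, went from 189 and 200.3 to 286 and 323 CPM (log2 0.65 ± 0.067, adjusted p = 3.37e-05), Junb, another, from 167 and 161 to 237 and 237 CPM (log2 0.53 ± 0.053) and Ier5 from 46.4 and 47.2 to 52.9 and 55.5 CPM (log2 0.21 ± 0.062). Leaving out control replicate 1 or 2 or PM2.5 replicate 1 or 2 left 5, 4, 7 and 7 rises and the fall of 1 gene, and the call of Ier5 was lost in all 4 fits. Of 25 heat shock chaperones 6 rose, and of 32 proteasome subunits 10 rose and 1 fell, with medians of 0.13 and 0.14. Bag3, a co-chaperone of autophagy, went from 83.7 and 83.7 to 100.3 and 108 CPM (log2 0.31 ± 0.059, adjusted p = 0.00435), a call lost without either control replicate or PM2.5 replicate 2. The proteasome rises were 4, 3, 8 and 4 in those fits and the heat shock rises 3, 2, 5 and 3.

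Several large changes fell outside the lists. Pcdh15, a protocadherin, went from 9.15 and 6.13 to 23.1 and 22.9 CPM (log2 1.58 ± 0.18, adjusted p = 8.28e-05), Upb1, an enzyme of pyrimidine breakdown, from 11.1 and 12.1 to 25.4 and 30.9 CPM (log2 1.28 ± 0.12) and Slc15a3, a lysosomal peptide transporter, from 6.201 and 5.38 to 12.4 and 13.4 CPM (log2 1.15 ± 0.19). Among the falls, Rgs17, a regulator of G protein signalling, went from 70.02 and 67.8 to 34.3 and 38.5 CPM (log2 -0.92 ± 0.082, adjusted p = 1.40e-05), Nfib, a transcription factor, from 80.5 and 83.6 to 47.4 and 51.7 CPM (log2 -0.73 ± 0.061) and Sgk1, a serum- and glucocorticoid-induced kinase, from 62.2 and 62.8 to 36.2 and 39.03 CPM (log2 -0.73 ± 0.082). In all 6 the groups were separate, which the rule that named them required. By absolute level, Gja1, a connexin of gap junctions, fell from 1116 and 1044 to 785 and 763 CPM (log2 -0.48 ± 0.061, adjusted p = 2.09e-04), and Sema3c, a secreted semaphorin, from 317 and 310.4 to 207 and 178 CPM (log2 -0.70 ± 0.065). Of the 40 genes with the largest rises and falls, 31 were called again in each of the 4 fits that left out an EpH4-AS library, and 9 lost the call in at least 1.

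Signalling genes outside these groups gave single changes. Jag1, a Notch ligand, went from 31.5 and 29.3 to 60.8 and 64.2 CPM (log2 1.04 ± 0.074, adjusted p = 7.78e-07), and Rbpj, the transcription factor of the pathway, from 177 and 175 to 239.9 and 234 CPM (log2 0.43 ± 0.064). Of 25 Wnt genes 5 fell and none rose, led by the co-receptor Lrp5, from 607 and 594 to 474 and 463 CPM (log2 -0.36 ± 0.054, adjusted p = 7.92e-04), and this 1 fall was left in each of the 4 fits without an EpH4-AS library. Tgfbr2, a TGF-beta receptor, fell by log2 0.49 and Ccn2, a secreted matricellular protein, rose from 20.2 and 17.3 to 47.7 and 34.04 CPM (log2 1.12 ± 0.15). Among p53 targets, Plk2 and Gadd45a rose by log2 1.04 ± 0.076 and 0.97 ± 0.085, as 2 of the 6 members of 28 that rose in that list. None of 34 mitosis genes was called by edgeR, none had an unadjusted p under 0.05, and DESeq2 called none either. Of 40 replication genes 2 rose (5%), Gmnn and Gins3, beside 6.39% of all genes tested. Neither was called with library totals, by DESeq2 or with the replicate block.

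The same exposure in the wildtype line was compared next. In EpH4 spheroids 1956 of the 13716 genes were higher with PM2.5 (14.3%) and 1770 lower (12.9%), and the difference between the effects in the lines passed its own test for 1932 genes (14.1%). Of the 877 genes that rose in EpH4-AS, 223 rose in EpH4 too, 134 fell there and 520 were not called, and the difference was past the threshold for 444 of them. Of the 652 that fell in EpH4-AS, 155 fell in EpH4, 83 rose and 414 were not called, with 237 past the threshold for the difference. The libraries of the lines differed in other ways too. The EpH4 libraries were deeper (24608176 to 27765982 counts). Reads outside exons made up 11.3 to 12.5% of gene reads in EpH4 and 3.39 to 3.59% in EpH4-AS. The mitochondrial share of counts was 2.21 to 5.03% in EpH4 and 0.219 to 0.302% in EpH4-AS. These differences cannot be told apart from the line, and their part in the numbers of genes called was not tested.

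Where NF-kB feedback inhibitors and effectors differed between the lines, the value was mostly higher in EpH4-AS, although members of both lists rose in EpH4 too. Cxcl1 changed by log2 0.73 ± 0.076 in EpH4, a difference of 2.01 ± 0.13 (adjusted p = 8.40e-07), and Ier3 by -0.078 ± 0.056, a difference of 1.85 ± 0.081. Zc3h12a changed by 0.42 ± 0.11 in EpH4, with a difference of 1.38 ± 0.17. Of the 12 feedback inhibitors 7 differed, each with the higher value in EpH4-AS. Of the 30 effectors 12 differed, 10 of them in that direction. In EpH4 itself 6 of these inhibitors rose and 2 fell, and 13 of the effectors rose and 2 fell. Of the 11 members of the subunit list 5 rose in EpH4, and 7 differed, 4 of them with the higher value in EpH4-AS. Among 15 chemokines 7 rose and 2 fell in EpH4, with a median of 0.34 against -0.09 in EpH4-AS. Of these 4 differed, 2 of them with the higher value in EpH4-AS. Sqstm1 and Jag1 rose in EpH4-AS and changed by -0.10 ± 0.058 and -0.14 ± 0.07 in EpH4, with differences of 0.96 ± 0.084 and 1.18 ± 0.10.

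Tfrc and Hmox1 changed in both lines. Tfrc fell in EpH4 too, by 1.46 on the log2 scale (adjusted p = 7.77e-07), less than in EpH4-AS by a difference of -0.85 ± 0.15 (adjusted p = 0.00184). Hmox1 rose by log2 1.06 ± 0.078 in EpH4, and the difference was 0.30 ± 0.11 (adjusted p = 0.0800). Mt2 changed by log2 0.17 ± 0.085 in EpH4, with a difference of 0.69 ± 0.14 (adjusted p = 0.00599). In the iron list 6 of 39 genes differed between the lines.

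Other lists differed more widely between the lines. Of 40 ATF4 and one-carbon genes, 5 rose and 20 fell in EpH4, and 27 differed, all with the higher value in EpH4-AS. Chaperones of the endoplasmic reticulum fell in 20 of 27 cases in EpH4 and 19 differed, Hspa5 by 0.74 ± 0.13 and Calr, calreticulin, by 0.52 ± 0.094. Ribosomal protein genes fell in 41 of 58 cases in EpH4, and 52 differed, all in the same direction. All 34 mitosis genes rose in EpH4 and 30 differed, whereas none was called in EpH4-AS. Of the collagens 7 rose in EpH4 and none fell, and 10 of 24 differed, Col3a1 by -2.62 ± 0.33 and Col6a3 by -0.87 ± 0.12; Col3a1 was low in EpH4, at 0.517 to 1.26 CPM. Lox changed by 0.41 ± 0.062 in EpH4, a difference of -2.05 ± 0.094 (adjusted p = 1.53e-08).

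**Figure D5:**
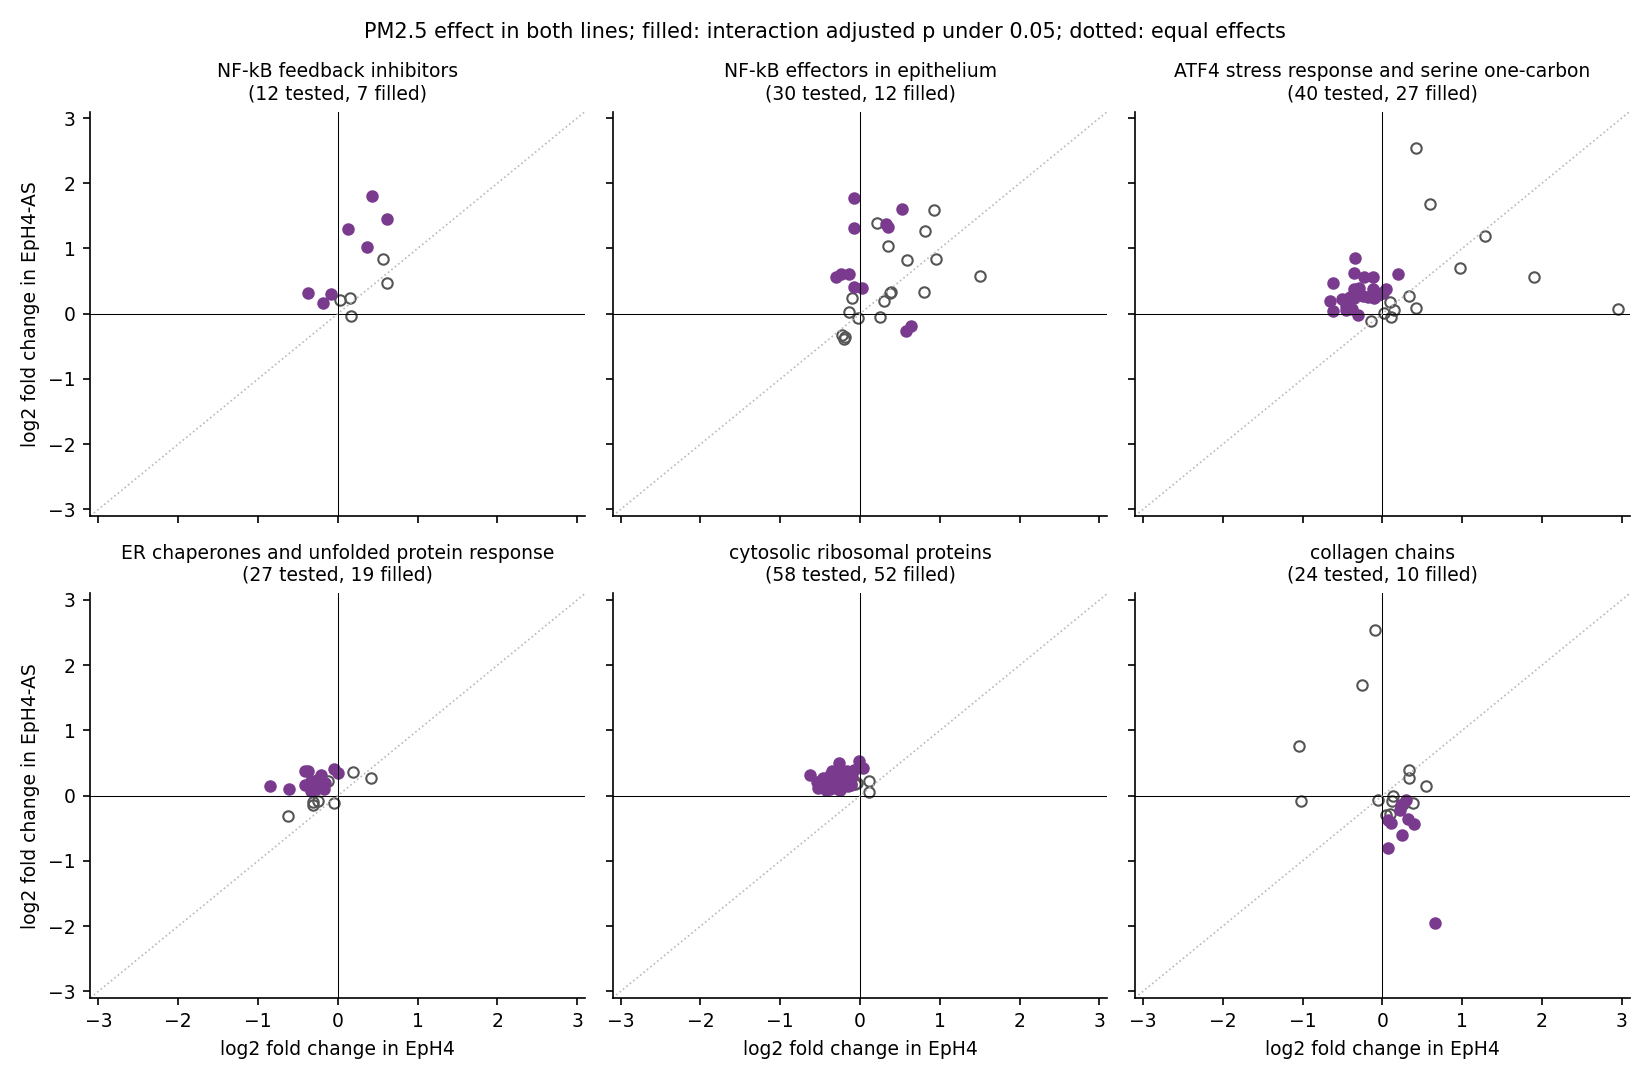
Each point is a gene of 1 of 6 lists, placed by its log2 fold change with PM2.5 in EpH4 (horizontal) and in EpH4-AS (vertical); filled points differ between the lines at an adjusted p under 0.05 and the diagonal marks equal effects. Filled points number 7 of 12 feedback inhibitors, 12 of 30 effectors, 27 of 40 ATF4 genes, 19 of 27 chaperone genes, 52 of 58 ribosomal genes and 10 of 24 collagens.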

How the data were processed

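Polyadenylated RNA of 8 libraries (4 groups of 2) was sequenced. The authors deposited raw counts per gene and RPKM values, with reads over the whole gene alongside, per the file headers; the genome build is GRCm39 per the submitters' processing notes, whereas aligner, counter and strand setting are not given in the sources used. Groups follow the labels. Counts were fitted for all 8 libraries with edgeR 4.0.16 (R 4.3.3; quasi-likelihood test, TMM, default filter on low counts, 4 residual degrees of freedom), two-sided, with Benjamini-Hochberg adjustment over 13716 genes at 0.05; the line difference is an interaction contrast. Reads outside exons are whole-gene reads minus exonic counts. The fit was tested on simulated data. Alternatives were other scalings and filters, DESeq2 1.42.0, limma 3.58.1 on log2(RPKM + 1), a replicate block and leaving out each library.

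The comparison, the 55 gene lists and the tests were chosen with earlier results of these data known. Named genes are the 20 largest rises and falls at 5 CPM or more, the 8 largest in CPM each way, up to 5 per list with the smallest adjusted p, the 10 smallest interaction p values, genes nearly off in one group, and a set of controls. The 20 largest rises and falls were taken only from called genes whose groups did not overlap, predicted models and pseudogenes aside. Separate groups in these genes are thus no further evidence. Aco1, Asns, Atf4, B2m, Blvra, Chac1, Col12a1, Cxcl2, Cyld, Ern1, Fth1, Gpx4, Hmox2, Ier5, Ireb2, Map3k14, Nfkbib, Nos2, Slc40a1, Sod3, Tnip1 and Txnrd1 were added after their values were seen.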

Additional observations from a re-analysis of the deposited data

Results flagged for a closer look

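Of the 69 genes tested that were named by the size of their change or of their line difference or always, 37 had an effect of PM2.5 that differed between EpH4-AS and EpH4 by the interaction test at an adjusted p under 0.05. The values that follow are the log2 effect in EpH4-AS minus that in EpH4. Over all genes tested the share that differed was 14.1% (1932 of 13716). Many of the 69 were chosen for a large effect in EpH4-AS, which is itself a part of the difference. Others were chosen for a small interaction p. A higher share among them was thus built in, and their differences are a description.

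Among NF-kB target and feedback genes the difference was 2.01 for Cxcl1, 1.85 for Ier3, 1.38 for Zc3h12a, 1.40 for Lcn2 and 1.18 for Nfkbiz. It was 1.10 for Lif, 1.08 for Sod2, 1.05 for Irf1, 0.978 for C3 and 0.835 for Nfkbia. In the chaperones Hspa5, Calr, Pdia3 and Hyou1 it was 0.740, 0.523, 0.372 and 0.346. Sqstm1 differed by 0.962, Jag1 by 1.18, Mt2 by 0.687, Eef1a1 by 0.591, Cdk2ap2 by 1.06, Abhd6 by 1.35 and Srp54c by 1.56.

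Matrix genes had lower values in EpH4-AS. The difference was -2.62 for Col3a1, -2.05 for Lox, -0.868 for Col6a3, -0.535 for Col5a1 and -0.325 for Fn1. It was -0.851 for Tfrc, -1.56 for Fabp4, -1.67 for Clip4, -1.30 for Cxcl12, -1.34 for Eepd1 and -1.16 for Sgk1. Nfib, Sema3c, Gja1 and Zfp462 differed by -0.689, -0.449, -0.394 and -0.916. The predicted gene Gm49388 differed by -5.43, on 280 counts in the EpH4-AS controls and 4 with PM2.5. It overlaps Setd1a and Hsd3b7 on the same strand, so its reads may be shared with them.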

How the results depend on the processing

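The number of genes called in EpH4-AS was 1529, of which 57.4% rose. It was 992 by DESeq2's Wald test, 2995 when the 4 EpH4-AS libraries were fitted alone, 40 when tested against a 1.5-fold change, and between 363 and 2088 when 1 library was left out. Genes past 2-fold numbered 110, and 62 by DESeq2, 28 by limma on log2(RPKM + 1), 34 against a 1.5-fold change and 59 to 130 without 1 library. Genes whose effect differed between the lines numbered 1932, and 1248 by DESeq2 and 875 to 2621 without 1 library. The lowest counts came without a control replicate of EpH4-AS, and the cause was not tested. With library totals 43.8% of calls rose and with limma 44.6%.

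Same-numbered libraries did not vary together (correlation of deviations 0.0646 in EpH4-AS and -0.101 in EpH4), so the numbers were not read as pairs. With the replicate block, 1252 genes were called, 1245 of them also without it, and 1580 differed between the lines. With EpH4-AS fitted alone and the replicate block, chosen after seeing the data, 3669 were called.

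Among named genes, changes of sign were limited to 3 that were not called. With 1 library left out, log2 fold changes ran from -0.611 to 1.002 for Epcam, from -2.54 to 0.245 for Il6 and from -0.065 to 0.131 for Tiparp. Tiparp was -0.0054 with library totals and -0.011 with limma. A fit without a library leaves 1 in its group, which is then assumed to vary like the other groups. With 2 libraries a group, genes of a few counts could not be resolved.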

Other observations

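Some genes were nearly off in the EpH4-AS controls and detected with PM2.5. Actc1, cardiac actin, had 2 counts over both controls and 24 with PM2.5, and the replication-dependent histone genes H2ac18 and H3c4 had 0 and 2 counts, then 32 and 20. None of the 3 was called in every fit without an EpH4-AS library. Histone genes are near-identical copies of each other and can share reads. The predicted genes Gm20521 and Gm45208 had 0 counts in the controls and 54 and 26 with PM2.5, and each overlaps 2 annotated genes. Zfp968 had 0 counts in 3 libraries and 98 in PM2.5 replicate 2 alone (adjusted p = 0.105 by edgeR), so 1 library carries that value.

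Few hypoxia and glycolysis genes were called in EpH4-AS, and the list median was -0.0058. Of 36 tested, Hk2, Gpi1 and Pfkp rose, and Gapdh, Pgk1, Egln1 and Hif1a fell. Over all genes tested 6.39% rose and 4.75% fell, so these few calls are not read as a response of the list. There were 0, 1, 1 and 1 rises and 0, 0, 0 and 1 falls left without control replicate 1 or 2 or PM2.5 replicate 1 or 2. Pgk1, a glycolytic kinase, went from 3427 and 3326 CPM to 2868 and 2761 CPM (log2 -0.26 ± 0.062, adjusted p = 0.0147). In EpH4 24 of these genes fell and 1 rose, and 18 differed between the lines, 17 of them with the higher value in EpH4-AS.

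Lysosomal genes rose in 7 of 41 cases and fell in 2, but leaving out control replicate 1 or 2 or PM2.5 replicate 1 or 2 left 2, 2, 3 and 2 rises. Of 24 YAP and TEAD targets, Ccn2 rose and Amotl1, Amotl2, Cdc42ep3 and Crim1 fell, and 4 falls were called in each of those fits.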
